A study of Oryzias latipes with 27 samples.

Results

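The miR-204 and miR-211 family was taken as every mature miRNA of the deposited tables named miR-204 or miR-211, with any letter, copy and arm. This gave 2 of 437 miRNAs, miR-204-5p and miR-204-2b-3p, and none named miR-211. The family was chosen with its levels at 30 days known, so those levels are given as a description with no test. Gonads of the medaka fish, Oryzias latipes, were taken for small RNA sequencing 10, 30 and 120 days after hatching, stages called D10, D30 and D120, in 9 groups of 3 biological replicates each, 27 libraries in all. MT_Fe_Ov is the ovary of XY fish whose DMY gene was disrupted with TALE nucleases. DMY is the male-determining gene on the medaka Y chromosome. The labels call these samples DMY knockout male gonads and give their tissue as ovary. They came from a line that had been kept for many generations. WT_Fe_Ov is the ovary of wild-type females, and WT_Ma_Te is the testis of wild-type males. At D10 the sample was the gonadal primordium together with neighbouring tissue, with the head and the tail removed.

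A miRNA hairpin yields 2 mature strands, named 5p and 3p after the arm they come from, and usually one of them is loaded into Argonaute and the other is degraded. The loaded strand pairs with target mRNAs mainly through its seed, the bases near its 5′ end. In mammals miR-204 and miR-211 share a seed and lie in introns of the channel genes TRPM3 and TRPM1, and they are abundant in the retinal pigment epithelium. In medaka, miR-204 is known for its part in lens and retina development, through the homeobox gene Meis2.

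The RefSeq gene table of the ASM223467v1 medaka assembly held 1 entry of the family, mir204, at chromosome 9, positions 16562225 to 16562320, a hairpin of 96 bases. It lies inside the span of the protein-coding gene LOC100533512, on chromosome 9 at 16486269 to 16621220. The table gives no exons, so whether the hairpin is intronic is not known from it. The tables do not tell which hairpin gave the reads of each miRNA, and the name miR-204-5p carries no copy number while miR-204-2b-3p does.

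Summed miRNA counts per library ranged from 2518868 to 8818687 at D10 and from 1054214 to 3517578 at D120. At D30 they were lower, 54535 to 351194 in MT_Fe_Ov, 524342 to 810120 in WT_Fe_Ov and 303501 to 533474 in WT_Ma_Te. Levels are given as RPM, the count of a miRNA per 1000000 miRNA counts of its library. RPM is thus a share of the miRNA counts and not an amount per read sequenced. By the paper's mapping summary, every D30 library had a smaller share of its reads on miRNAs than any library of D10 or D120. Levels per read sequenced were not computed, and folds between stages or groups can differ on that scale. Of the miR-202 family, known as a gonad miRNA in fish, both arms were detected in all groups except D120 MT_Fe_Ov and D120 WT_Ma_Te, where 1 of the 2 arms was at 0. D30 MT_Fe_Ov replicate 3 stood apart from the others of its group, with 50827 RPM summed over 18 neural miRNAs (miR-9, miR-124, miR-153 and miR-219), against 93.2 and 385 RPM in replicates 1 and 2.

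At D30, miR-204-5p was among the most abundant miRNAs of both gonads of XY fish and had no read in the ovary of wild-type females. In D30 MT_Fe_Ov the 3 libraries held 134528, 163620 and 96200 RPM, a mean of 131450 ± 33815 RPM (SD, n = 3). It ranked 1 or 2 among the 437 miRNAs there and took 13.1% ± 3.38 of all miRNA counts. In D30 WT_Ma_Te the libraries held 67096, 62700 and 53670 RPM, a mean of 61155.5 ± 6845 RPM (SD, n = 3), at ranks 4 to 6 and 6.12% ± 0.684 of the counts. In D30 WT_Fe_Ov there were 0 counts in all 3 libraries, of 810120, 524342 and 617883 miRNA counts.

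A count of 0 allows up to 3 counts, which is 3.70, 5.72 and 4.86 RPM in these 3 libraries, or shares of up to 0.000370%, 0.000572% and 0.000486%. These limits, like all counting intervals here, cover counting error only. The 9 libraries of D30 fell into 3 separate ranges, with MT_Fe_Ov highest, WT_Ma_Te below it and WT_Fe_Ov at 0. Set against the mean of those limits, the level in D30 MT_Fe_Ov was at least 27616-fold higher than in D30 WT_Fe_Ov. In D30 WT_Fe_Ov it was at least 12848-fold lower than in D30 WT_Ma_Te. In MT_Fe_Ov it was 2.15-fold that of WT_Ma_Te in RPM. The summed miRNA counts behind these shares were 54535 to 351194 in D30 MT_Fe_Ov and 303501 to 533474 in D30 WT_Ma_Te. The order of these 2 groups need not hold per read sequenced, which was not tested. The 0 in D30 WT_Fe_Ov does not depend on the scale.

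Groups that do not overlap were common at D30, and these members were chosen on that stage, so nothing is read from their number. MT_Fe_Ov lay wholly above WT_Ma_Te for 12.8% of the 250 miRNAs tested and wholly above WT_Fe_Ov for 15.2%. WT_Fe_Ov lay wholly below WT_Ma_Te for 46.0% of them. In whole tissue, fewer cells that hold a miRNA and less of it in each cell cannot be told apart. Whether the 0 in D30 WT_Fe_Ov arose in the tissue, in making the libraries or in counting the reads was not tested.

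**Figure D1:**
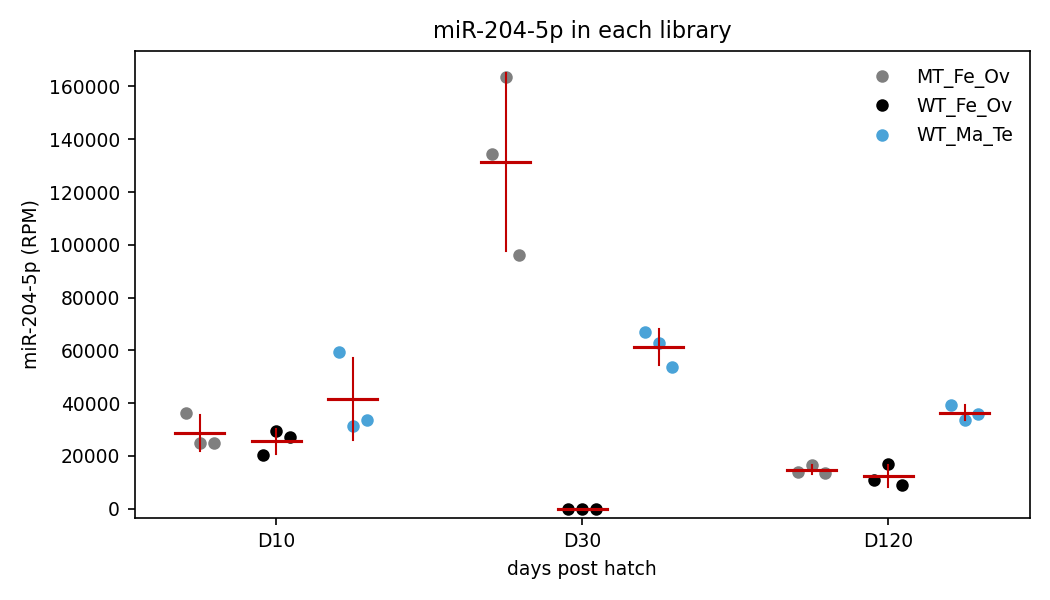
miR-204-5p in each of the 27 libraries, in RPM on a linear axis, by stage, with MT_Fe_Ov grey, WT_Fe_Ov black and WT_Ma_Te blue. Red bars give the mean ± SD of 3 libraries; the 3 D30 WT_Fe_Ov libraries sit at 0, and the D30 MT_Fe_Ov libraries sit between 96200 and 163620 RPM.

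The library of D30 MT_Fe_Ov with the high neural sum, replicate 3, had the lowest miR-204-5p of its group. Its sum over 12 eye and sensory miRNAs (miR-183, miR-96, miR-182 and miR-184), 7 of them above 0, was 11131 RPM, against 662 and 183.4 RPM in replicates 1 and 2. Without it, the mean of D30 MT_Fe_Ov was 149074 ± 20571 RPM (SD, n = 2), which was 2.44-fold the mean of D30 WT_Ma_Te. The same eye and sensory sum was 183.4 to 11131 RPM in D30 MT_Fe_Ov (7 of 12 above 0), 3258 to 6945 RPM in D30 WT_Fe_Ov (7 of 12) and 1618 to 2115 RPM in D30 WT_Ma_Te (9 of 12). The D30 WT_Fe_Ov sums were above the D30 WT_Ma_Te sums, from fewer detected miRNAs. The neural sum was 93.2 to 50827 RPM in D30 MT_Fe_Ov (9 of 18 above 0), 113.6 to 295.6 RPM in D30 WT_Fe_Ov (4 of 18) and 2270 to 3422 RPM in D30 WT_Ma_Te (10 of 18).

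In the sums of 3 other lists, every D30 WT_Fe_Ov library lay below all other D30 libraries. Of the 250 single miRNAs tested at D30, WT_Fe_Ov lay wholly below WT_Ma_Te for 46.0% and wholly below MT_Fe_Ov for 15.2%. Unlike miR-204-5p, the epithelial and blood sums were higher in mean in D30 WT_Ma_Te than in D30 MT_Fe_Ov, while the gut sum was lower. Gut miRNAs (miR-192, miR-194 and miR-215) summed to 638 to 2815 RPM in D30 MT_Fe_Ov (5 of 6 above 0), 253 to 452 RPM in D30 WT_Fe_Ov (3 of 6) and 547 to 841 RPM in D30 WT_Ma_Te (5 of 6). Epithelial miRNAs (miR-200, miR-141 and miR-429) summed to 9294 to 18169 RPM in D30 MT_Fe_Ov (3 of 6), 6456 to 8723 RPM in D30 WT_Fe_Ov (4 of 6) and 14466 to 17951 RPM in D30 WT_Ma_Te (5 of 6). Blood miRNAs (miR-144 and miR-451) summed to 7782 to 27964 RPM in D30 MT_Fe_Ov (2 of 3), 5025 to 6433 RPM in D30 WT_Fe_Ov (2 of 3) and 18444 to 30723 RPM in D30 WT_Ma_Te (3 of 3). Muscle and immune sums (lists given below) were also lowest in mean in D30 WT_Fe_Ov, at 1149 and 1939 RPM. Its muscle sums, 1100 to 1185 RPM, lay within those of D30 MT_Fe_Ov, 757 to 2946 RPM. They lay wholly below those of D30 WT_Ma_Te, 7381 to 8915 RPM. Its immune sums overlapped those of both other groups. Skin sums ran the other way, with means of 4078 RPM in D30 WT_Fe_Ov, 1338 RPM in D30 WT_Ma_Te and 121 RPM in D30 MT_Fe_Ov. Stromal and miR-202 sums were lowest in D30 MT_Fe_Ov, at means of 32282 and 5616 RPM, against 61264 and 10840 RPM in D30 WT_Fe_Ov. The part of these tissues in the level of miR-204-5p was not tested.

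A complete lack of reads was common in D30 WT_Fe_Ov, but for miRNAs that were scarce in the other gonads. Of 437 miRNAs, 41.6% were at 0 in all 3 of its libraries, against 35.7% in D30 MT_Fe_Ov and 14.0% in D30 WT_Ma_Te. The median of these miRNAs of D30 WT_Fe_Ov, each taken at the higher of its D30 MT_Fe_Ov and D30 WT_Ma_Te means, was 2.55 RPM. Only 14 of them reached 100 RPM by that measure. Only miR-204-5p and the neural miRNA miR-124-3p reached 1000 RPM. miR-124-3p averaged 3225 RPM in D30 MT_Fe_Ov, and nearly all of it lay in replicate 3, where it was 9656 RPM, against 18.6 and 0 RPM in replicates 1 and 2.

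Over the 3 stages, a single other miRNA was at 0 in all libraries of one group and above 10000 RPM in another group of the stage. This was miR-202-5p, at 0 in D120 MT_Fe_Ov and D120 WT_Ma_Te and at 259882 RPM in D120 WT_Fe_Ov. No miRNA met this rule at D10.

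At D10, miR-204-5p was abundant in all groups. The D10 MT_Fe_Ov libraries held 36352, 24926 and 24749 RPM, a mean of 28676 ± 6648 RPM (SD, n = 3). The D10 WT_Fe_Ov libraries held 20311, 29392 and 27169 RPM, a mean of 25624 ± 4734 RPM. The D10 WT_Ma_Te libraries held 59401, 31471 and 33532 RPM, a mean of 41468 ± 15565 RPM. The D10 MT_Fe_Ov range overlapped both others, while every D10 WT_Fe_Ov library lay below every D10 WT_Ma_Te library, as was the case for 6.70% of the 388 miRNAs tested at this stage. The first library of D10 WT_Ma_Te was far above the other two of its group.

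No genotype difference of miR-204-5p at D10 passed the test, by the edgeR quasi-likelihood test with Benjamini-Hochberg adjustment over all miRNAs. In MT_Fe_Ov against WT_Ma_Te the log2 fold change was -0.68 (SE 0.337, adjusted p = 0.306 in edgeR). In WT_Fe_Ov against WT_Ma_Te it was -0.81 (SE 0.338, adjusted p = 0.226 in edgeR), with a 95% interval from -1.56 to -0.06. The unadjusted edgeR p of that contrast was 0.0365. In MT_Fe_Ov against WT_Fe_Ov it was 0.13, with a 95% interval from -0.61 to 0.88 (adjusted p = 0.996 in edgeR), so a difference of either sign within these bounds could not be seen with 3 libraries a group. A miRNA counted as differentially expressed (a DEM) at an adjusted p of at most 0.05 together with a log2 fold change of at least 1 in size. edgeR called 0 of 388 miRNAs in each of the 3 contrasts at D10 (0%), with 72, 76 and 11 at an unadjusted p under 0.05, and DESeq2 called 9, 23 and 0. These counts follow the order MT_Fe_Ov against WT_Ma_Te, WT_Fe_Ov against WT_Ma_Te, and MT_Fe_Ov against WT_Fe_Ov.

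The D10 samples also held much RNA of other tissues. Muscle miRNAs (miR-1, miR-133, miR-206 and miR-499) summed to 89201 to 156474 RPM over the D10 libraries, and skin miRNAs (miR-203 and miR-205) to 71420 to 133797 RPM. The eye and sensory sum was 21714 to 30735 RPM in D10 MT_Fe_Ov, 14460 to 21819 RPM in D10 WT_Fe_Ov and 12623 to 31356 RPM in D10 WT_Ma_Te, with 12 of 12 above 0 in each group. The share of miR-204-5p that came from the gonad itself at D10 was not tested.

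At D120, miR-204-5p was lower in both ovaries than in the testis. The D120 MT_Fe_Ov libraries held 14083, 16634 and 13522 RPM, a mean of 14746 ± 1659 RPM (SD, n = 3). The D120 WT_Fe_Ov libraries held 11023, 16979 and 8811 RPM, a mean of 12271 ± 4224 RPM. The D120 WT_Ma_Te libraries held 39300, 33690.5 and 36047 RPM, a mean of 36346 ± 2817 RPM. All 6 ovary libraries lay below all 3 testis libraries, and the 2 kinds of ovary overlapped. For scale, MT_Fe_Ov lay wholly below WT_Ma_Te for 42.2% of the 344 miRNAs tested at D120, and WT_Fe_Ov for 45.1%.

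Both ovary contrasts at D120 passed the p threshold and missed the fold threshold. In MT_Fe_Ov against WT_Ma_Te, the log2 fold change of miR-204-5p was -0.78 (SE 0.246, 95% interval -1.33 to -0.24, adjusted p = 0.0263 in edgeR). Over the alternatives tried, that adjusted edgeR or DESeq2 p ranged from 0.00154 to 0.0901. It was above 0.05, 0.0531 to 0.0901 in edgeR, when replicate 1 or 3 of D120 MT_Fe_Ov or any replicate of D120 WT_Ma_Te was left out, with log2 fold changes of -0.74 to -0.83. In WT_Fe_Ov against WT_Ma_Te it was -0.98 (SE 0.247, 95% interval -1.53 to -0.43, adjusted p = 0.00940 in edgeR), with a range of 0.000511 to 0.0394. Without replicate 1 or 2 of D120 WT_Fe_Ov, or replicate 2 or 3 of D120 WT_Ma_Te, it was -1.02 to -1.26 and was called. It was -0.76 without replicate 3 of D120 WT_Fe_Ov, -0.99 without replicate 1 of D120 WT_Ma_Te and -0.93 on only the 6 libraries of the contrast (adjusted p = 0.0155, 0.0309 and 0.0394 in edgeR), and was called in none of these. With library totals alone it was -1.57 and was called. In MT_Fe_Ov against WT_Fe_Ov the log2 fold change was 0.20 (95% interval -0.35 to 0.74, adjusted p = 0.996 in edgeR).

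The size of these differences depended on the scaling. The edgeR fits used TMM scaling, under which the median log2 fold change over all tested miRNAs was -0.01 for MT_Fe_Ov against WT_Ma_Te and 0.04 for WT_Fe_Ov against WT_Ma_Te. With library totals alone these medians were -0.52 and -0.54, and miR-204-5p then differed by -1.30 and -1.57, past the fold threshold in both contrasts. In 1 edgeR fit of all 27 libraries they were -1.06 and -1.26, and both were called. With DESeq2, WT_Fe_Ov against WT_Ma_Te was -1.03 and was called, with an adjusted p of 0.00109. By edgeR, 36.0% of all tested miRNAs were called in MT_Fe_Ov against WT_Ma_Te, 38.1% in WT_Fe_Ov against WT_Ma_Te and 0.581% in MT_Fe_Ov against WT_Fe_Ov, and neither member of the family was among them.

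Stromal miRNAs (miR-143, miR-145, miR-199 and miR-214) were also lower in sum in both ovaries than in the testis at D120. Their sum was 82230 to 113440 RPM in D120 MT_Fe_Ov, 79759 to 100877 RPM in D120 WT_Fe_Ov and 121074 to 142686 RPM in D120 WT_Ma_Te, with 9 of 9 above 0 in each group. The eye and sensory sum was 398 to 781 RPM in D120 MT_Fe_Ov (10 of 12 above 0), 551 to 1852 RPM in D120 WT_Fe_Ov (12 of 12) and 1921 to 2214 RPM in D120 WT_Ma_Te (11 of 12). The gut sum was also lower in both ovaries, at 474 to 609.5 RPM in D120 MT_Fe_Ov, 309 to 1148 RPM in D120 WT_Fe_Ov and 1291 to 22613 RPM in D120 WT_Ma_Te, with 6 of 6 above 0 in each group. Immune miRNAs (miR-142, miR-146, miR-150, miR-155 and miR-223) were higher in sum in both ovaries, at 22284 to 23996 RPM in D120 MT_Fe_Ov, 25676 to 27155 RPM in D120 WT_Fe_Ov and 3895 to 8109 RPM in D120 WT_Ma_Te, with 9 of 9 above 0 in each group. Neural, muscle, skin, epithelial and blood sums overlapped between both ovaries and the testis at D120. The miR-202 sum was 634 to 1105 RPM in D120 MT_Fe_Ov, 241577 to 270705 RPM in D120 WT_Fe_Ov and 1157 to 1471 RPM in D120 WT_Ma_Te. The part of these tissues in the difference of miR-204-5p was not tested.

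Across stages, the ovaries of MT_Fe_Ov and WT_Fe_Ov had overlapping levels of miR-204-5p at D10 and D120 and opposite extremes at D30. In MT_Fe_Ov the D30 mean was 4.58-fold the D10 mean, and the D120 mean was 8.91-fold below the D30 mean. In WT_Fe_Ov the D30 level was at least 5383-fold lower than at D10, and the D120 level was at least 2578-fold higher than at D30. In WT_Ma_Te the D30 mean was 1.47-fold the D10 mean, with overlapping libraries, and the D120 mean was 0.594 of the D30 mean. These differences between stages are given as a description, and the D10 samples also held neighbouring tissue. They compare shares of the miRNA counts, whose totals were far lower at D30, so they do not show a rise or fall per read sequenced. Of the 399 miRNAs tested over all stages, 13.5% lay wholly higher at D30 than at D10 in MT_Fe_Ov and 62.4% wholly lower in WT_Fe_Ov. Between D120 and D30, 13.3% lay wholly lower at D120 in MT_Fe_Ov, 50.1% wholly higher in WT_Fe_Ov and 23.3% wholly lower in WT_Ma_Te.

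In order of mean level, D30 MT_Fe_Ov was followed by D30, D10 and D120 WT_Ma_Te, then by D10 MT_Fe_Ov, D10 WT_Fe_Ov, D120 MT_Fe_Ov and D120 WT_Fe_Ov, and D30 WT_Fe_Ov came last. Neighbours in this order overlapped in their libraries except at 3 steps. These were D30 MT_Fe_Ov above D30 WT_Ma_Te, D10 WT_Fe_Ov above D120 MT_Fe_Ov, and D120 WT_Fe_Ov above D30 WT_Fe_Ov. The testis groups of all 3 stages thus lay above the ovary groups of D10 and D120 in mean.

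Between D120 and D10, miR-204-5p passed the p threshold in both ovaries with all libraries, and was lower at D120. The family was chosen on D30, but this fit took its scaling and spread from all 27 libraries, those of D30 included. The D10 samples held neighbouring tissue, so stage and the tissue sampled cannot be told apart in this pair. Muscle miRNAs summed to 89201 to 156474 RPM over the D10 libraries and to 5248 to 7963 RPM over those of D120. The log2 fold change was -0.79 in MT_Fe_Ov (SE 0.287, 95% interval -1.39 to -0.19, adjusted p = 0.0183 in edgeR, range over alternatives 0.000519 to 0.139). It was -0.51 without replicate 1 of D10 MT_Fe_Ov, -0.65 without replicate 1 of D120 MT_Fe_Ov and -1.28 without replicate 3 of D10 MT_Fe_Ov, with adjusted edgeR p-values of 0.139, 0.0835 and 0.000519 in that order, and only the last was a DEM. In WT_Fe_Ov it was -0.89 (SE 0.287, 95% interval -1.49 to -0.29, adjusted p = 0.00959 in edgeR, range 0.00259 to 0.0941). The adjusted edgeR p was 0.0941 without replicate 2 and 0.0507 without replicate 3 of D10 WT_Fe_Ov. Without replicate 1 of D10 WT_Fe_Ov it was -1.03, without replicate 2 of D120 WT_Fe_Ov -1.11 and with library totals alone -1.06, each a DEM. In WT_Ma_Te the log2 fold change was -0.41 (SE 0.286, 95% interval -0.9998 to 0.19, adjusted p = 0.215 in edgeR), a value that depended on the libraries in the fit. It was -0.15 without replicate 1 of D10 WT_Ma_Te (adjusted p = 0.685 in edgeR), and -0.96 and -0.93 without replicate 1 or 3 of D120 WT_Ma_Te (adjusted p = 0.0118 and 0.0124 in edgeR). On only the 6 libraries of each contrast, without D30, it was -0.85 in WT_Ma_Te (adjusted p = 0.0178 in edgeR). In MT_Fe_Ov and WT_Fe_Ov it was then -0.76 and -0.92 (adjusted p = 0.0305 and 0.0311 in edgeR). Over all alternatives the adjusted p of WT_Ma_Te ranged from 0.0118 to 0.685. None of the 3 fits with all libraries reached a log2 fold change of 1 in size. The median over all 399 miRNAs tested was -0.25 in MT_Fe_Ov, -0.32 in WT_Fe_Ov and -0.14 in WT_Ma_Te. Neither member was a DEM in any of the 3 genotypes in this fit, while 68.2% of all tested miRNAs were DEMs in MT_Fe_Ov, 67.7% in WT_Fe_Ov and 65.9% in WT_Ma_Te.

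Whether the ovary to testis difference itself changed between D10 and D120 was tested as an interaction in the fit of all 27 libraries. For miR-204-5p it was -0.39 in MT_Fe_Ov against WT_Ma_Te (95% interval -1.22 to 0.45, adjusted p = 0.632 in edgeR). In WT_Fe_Ov against WT_Ma_Te it was -0.48 (95% interval -1.32 to 0.35, adjusted p = 0.465 in edgeR). These values varied with the libraries in the fit. The first was -0.15 on the 18 libraries of D10 and D120, and with 1 library left out it ranged from -0.65 without replicate 1 of D10 WT_Ma_Te to -0.10 without replicate 1 of D10 MT_Fe_Ov. The second was -0.08 on the 18 libraries, and with 1 library left out it ranged from -0.74 without replicate 1 of D10 WT_Ma_Te to 0.12 without replicate 3 of D120 WT_Fe_Ov. With library totals alone they were -0.77 and -0.87. Neither interaction passed the test in these fits, for which 19.0% and 17.5% of all miRNAs were called. Here too, stage and the tissue sampled cannot be told apart, since the D10 samples held neighbouring tissue.

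**Figure D2:**
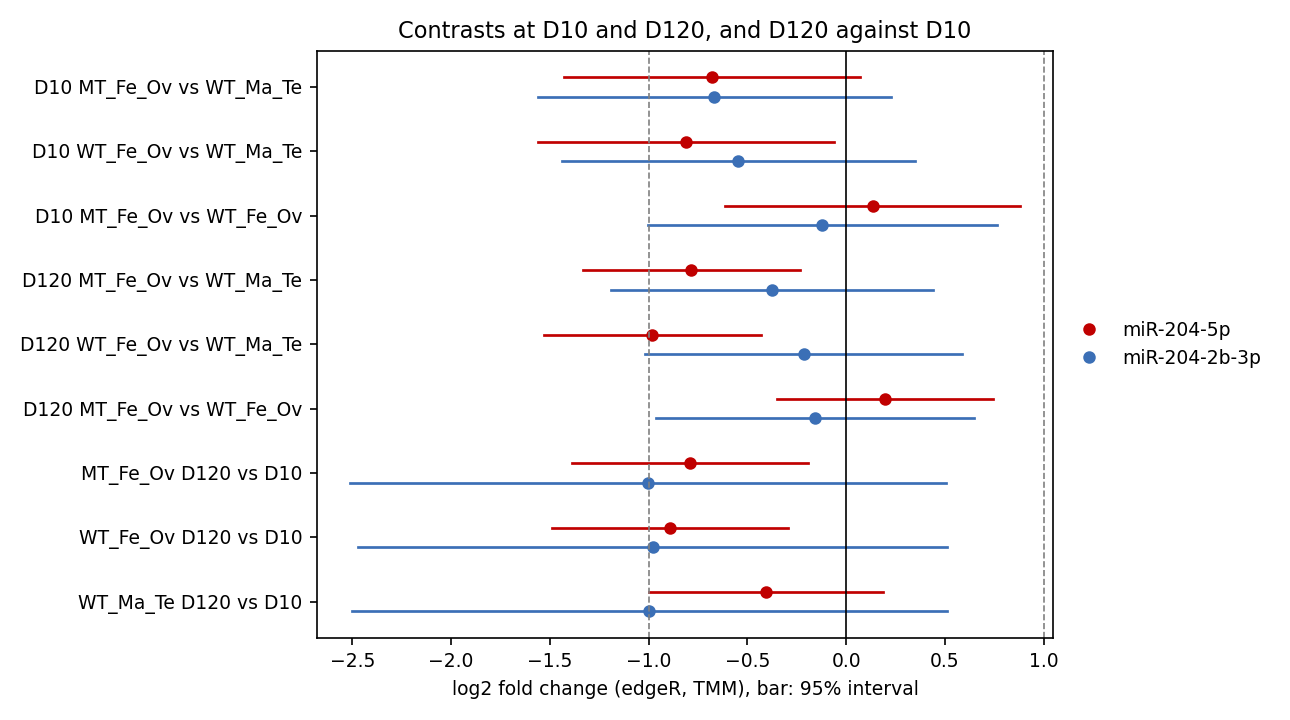
log2 fold changes of miR-204-5p (red) and miR-204-2b-3p (blue) in the contrasts at D10, at D120 and between D120 and D10, from edgeR with TMM scaling, the group named first over the second, with 95% intervals as bars. Dashed lines mark a log2 fold change of 1 in size; the miR-204-5p intervals of both ovaries against D120 WT_Ma_Te, -1.33 to -0.24 and -1.53 to -0.43, lie below 0.

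The 3p strand, miR-204-2b-3p, was scarce everywhere, and its D30 levels ran the other way between WT_Fe_Ov and WT_Ma_Te. At D30 it had 14, 0 and 0 counts in MT_Fe_Ov, which is 131, 0 and 0 RPM. It had 33, 89 and 52 counts in D30 WT_Fe_Ov, which is 40.7, 169.7 and 84.2 RPM, a mean of 98.2 ± 65.6 RPM (SD, n = 3). It had 3, 4 and 3 counts in D30 WT_Ma_Te, which is 5.62, 8.16 and 9.88 RPM, a mean of 7.89 ± 2.14 RPM. All 3 D30 WT_Fe_Ov libraries lay above all 3 D30 WT_Ma_Te libraries, as was the case for 21.6% of the miRNAs tested at D30, and the D30 MT_Fe_Ov libraries spanned both. At D30 this miRNA passed the count filter only with the WT_Fe_Ov libraries, where it was high, so nothing is read from this separation. Summed over libraries, 174 of 1952345 counts in D30 WT_Fe_Ov against 10 of 1327006 in D30 WT_Ma_Te gave a ratio of 11.8, with a 95% counting interval of 6.28 to 25.1. That interval leaves out the spread between libraries, which ran from 40.7 to 169.7 RPM in D30 WT_Fe_Ov, so it is too narrow for a difference between groups.

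The D30 MT_Fe_Ov libraries differed widely among themselves. At the share of replicate 1, replicates 2 and 3 would have held 7.12 and 45.8 counts, and both had 0. Their limits at 3 counts were 55.0 and 8.54 RPM. The single value above 0 in this group, 131 RPM, lay within the D30 WT_Fe_Ov range of 40.7 to 169.7 RPM. Leaving miR-204-5p out of the library totals, an alternative added after seeing the data, gave 98.2 ± 65.6 RPM in D30 WT_Fe_Ov and 8.39 ± 2.23 RPM in D30 WT_Ma_Te.

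**Figure D3:**
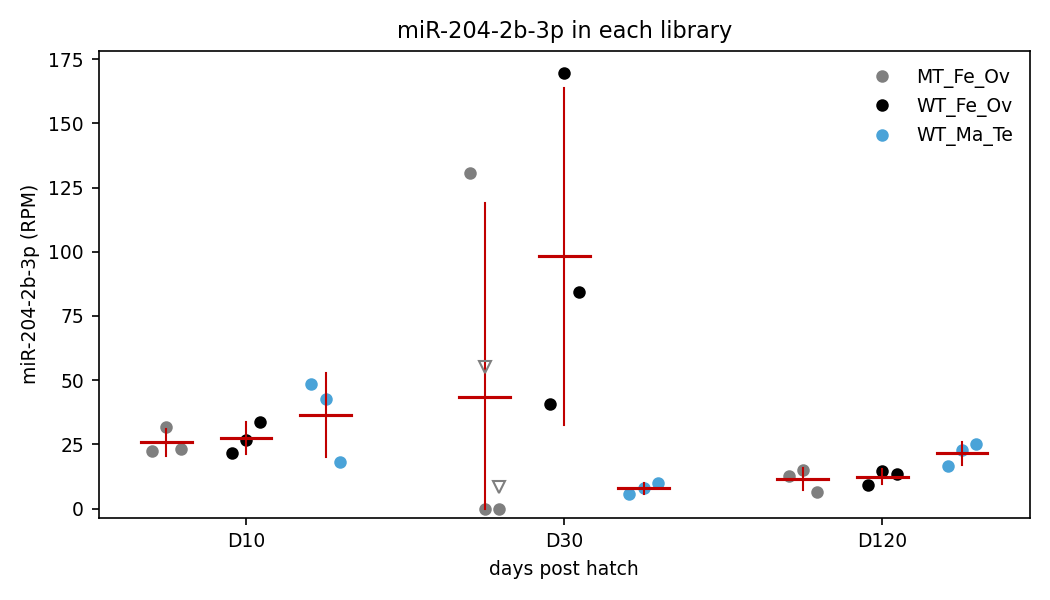
miR-204-2b-3p in each of the 27 libraries, in RPM on a linear axis, by stage, with MT_Fe_Ov grey, WT_Fe_Ov black and WT_Ma_Te blue. Red bars give the mean ± SD of 3 libraries, drawn no lower than 0, and open triangles the limit of 3 counts for a library at 0; D30 WT_Fe_Ov spans 40.7 to 169.7 RPM, and D30 WT_Ma_Te 5.62 to 9.88 RPM.

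At D10, miR-204-2b-3p was 22.5, 31.9 and 23.2 RPM in MT_Fe_Ov, 21.8, 26.8 and 33.9 RPM in WT_Fe_Ov and 48.6, 42.9 and 17.99 RPM in WT_Ma_Te, from at least 108 counts in each library. The 3 groups overlapped. The log2 fold change was -0.67 in MT_Fe_Ov against WT_Ma_Te, -0.55 in WT_Fe_Ov against WT_Ma_Te and -0.12 in MT_Fe_Ov against WT_Fe_Ov, with adjusted edgeR p-values of 0.401, 0.471 and 0.996 in that order.

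At D120 it was 12.6, 15.1 and 6.65 RPM in MT_Fe_Ov, 9.26, 14.5 and 13.7 RPM in WT_Fe_Ov and 16.5, 22.8 and 25.3 RPM in WT_Ma_Te, from 9 to 51 counts per library. All 6 ovary libraries lay below the 3 testis libraries in RPM, as was the case for 42.2% of all tested miRNAs in MT_Fe_Ov and 45.1% in WT_Fe_Ov, and the contrasts did not pass the test. The log2 fold change was -0.37 in MT_Fe_Ov against WT_Ma_Te (95% interval -1.19 to 0.44), -0.22 in WT_Fe_Ov against WT_Ma_Te (-1.02 to 0.58) and -0.16 in MT_Fe_Ov against WT_Fe_Ov (-0.96 to 0.65). The adjusted edgeR p-values were 0.441, 0.650 and 0.996 in that order. Between D120 and D10 the log2 fold change was -1.001 in MT_Fe_Ov, -0.98 in WT_Fe_Ov and -0.998 in WT_Ma_Te, with adjusted edgeR p-values of 0.222, 0.233 and 0.230 in that order. The 95% interval in MT_Fe_Ov was wide, -2.51 to 0.51, in a fit that also held the D30 libraries. Fitted on only the 6 libraries of each contrast, the log2 fold change was -0.92 in MT_Fe_Ov, -1.01 in WT_Fe_Ov and -1.43 in WT_Ma_Te. In that order, the adjusted edgeR p-values were 0.0441, 0.0172 and 0.0220. By these fits miR-204-2b-3p was a DEM in WT_Fe_Ov and WT_Ma_Te and not in MT_Fe_Ov. Such calls were common, since 276, 265 and 274 of the 437 miRNAs, not all of them tested, were DEMs in that order. The D10 samples held neighbouring tissue, so stage and the tissue sampled cannot be told apart here either. The D30 libraries of WT_Fe_Ov lay wholly above those of D10 (17.8% of all 399 miRNAs did) and wholly above those of D120 (20.1%). The D30 libraries of WT_Ma_Te lay wholly below those of D10 (40.1%) and wholly below those of D120 (43.9%). In order of mean level, D30 WT_Fe_Ov came first, then D30 MT_Fe_Ov, D10 WT_Ma_Te, D10 WT_Fe_Ov, D10 MT_Fe_Ov, D120 WT_Ma_Te, D120 WT_Fe_Ov, D120 MT_Fe_Ov and D30 WT_Ma_Te. Neighbours in this order overlapped except for D120 WT_Ma_Te above D120 WT_Fe_Ov.

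The ratio of 5p to 3p reads lay between 645 and 2386 in all libraries of D10 and D120, and outside this range in 8 of the 9 libraries of D30. There were 734 to 1864 reads of miR-204-5p for each read of miR-204-2b-3p in the 9 libraries of D10, and 645 to 2386 in the 9 of D120. In D30 MT_Fe_Ov the ratio was 1031 in replicate 1, inside the range of the other stages, and at least 2974 and 11262 in replicates 2 and 3, where the 3p strand was at 0. In D30 WT_Fe_Ov it was at most 0.0909, 0.0337 and 0.0577, since there the 5p strand was at 0 and the 3p strand was not. In D30 WT_Ma_Te it was 11931, 7681 and 5430. Only in D30 WT_Fe_Ov did the 3p strand outnumber the 5p strand. The 3p counts there, 33 to 89, were within those of other libraries, but from lower totals than at D10 and D120. In RPM they were 40.7 to 169.7, and their mean of 98.2 RPM was the highest of all groups. Whether both come from the same hairpin is not given by the tables, and the ratio is a description of their reads.

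**Figure D4:**
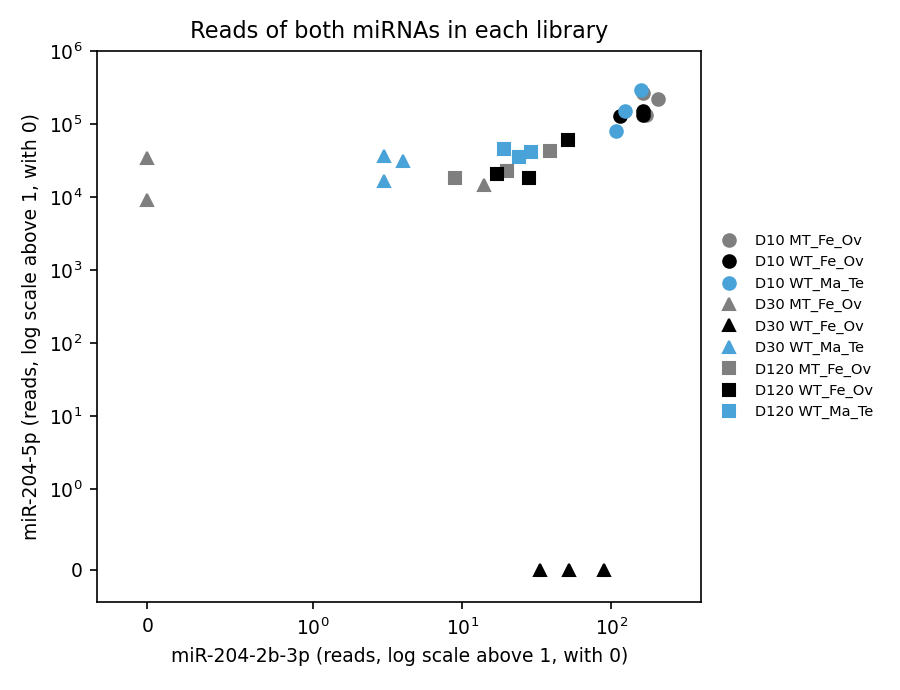
Reads of miR-204-5p against reads of miR-204-2b-3p in each library, on log axes above 1 that include 0, with colours for genotype (MT_Fe_Ov grey, WT_Fe_Ov black, WT_Ma_Te blue) and shapes for stage (D10 circles, D30 triangles, D120 squares). The 18 libraries of D10 and D120 lie along a band, and the 3 D30 WT_Fe_Ov libraries lie at 0 reads of miR-204-5p with 33 to 89 reads of miR-204-2b-3p.

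Over the 9 group means, the miRNAs whose profile was most like that of miR-204-5p were scarce ones. Likeness was the Pearson r of log2(RPM + 1) over the 9 group means, among 399 miRNAs, as a description, since all means share their libraries and the scaling to the library total. The highest was miR-92a-2-5p, r = 0.995 over 9 means, the strand of a miR-92a hairpin that had 0 counts in the 3 D30 WT_Fe_Ov libraries, 5, 0 and 5 in D30 MT_Fe_Ov and 14, 4 and 7 in D30 WT_Ma_Te. It averaged 20.3 RPM in D30 MT_Fe_Ov and 19.2 RPM in D30 WT_Ma_Te, so its zero rests on far fewer reads than that of miR-204-5p. It was followed by miR-7bb-3p (r = 0.891), miR-338-1a-5p (r = 0.890), miR-196a-2-3p (r = 0.866) and miR-107a-3p (r = 0.846), all at most 1.18 RPM in D30 WT_Fe_Ov.

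The least like were let-7h-1-3p (r = -0.941), let-7b-3p (r = -0.845), miR-135b-3p (r = -0.797), let-7d-5p (r = -0.775) and miR-125a-1-3p (r = -0.764). Each had its highest mean in D30 WT_Fe_Ov. let-7d-5p, a member of the let-7 family known for its rise with differentiation, was at 17602 RPM in D30 MT_Fe_Ov, 39468 RPM in D30 WT_Fe_Ov and 5529 RPM in D30 WT_Ma_Te. The r of miR-204-2b-3p with miR-204-5p was -0.613.

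These values changed with the groups included and with the points used. With the 27 libraries as points, the most like was miR-148a-3p (r = 0.786), and miR-92a-2-5p had r = 0.767. Over the 8 means without D30 WT_Fe_Ov, an alternative added after seeing the data, r was 0.927 for miR-92a-2-5p, 0.839 for miR-7bb-3p, 0.337 for miR-338-1a-5p, 0.700 for miR-196a-2-3p, -0.595 for miR-107a-3p and 0.459 for miR-204-2b-3p. The 5 least like had r from -0.543 to 0.627. Over the 6 means of D10 and D120, likewise added after seeing the data, miR-92a-2-5p had r = 0.962 and the other 4 had r = 0.371, 0.499, 0.249 and 0.0861. The most like was then miR-92a-3p, r = 0.996 over 6 means, the abundant strand of the miR-92a family.

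**Figure D5:**
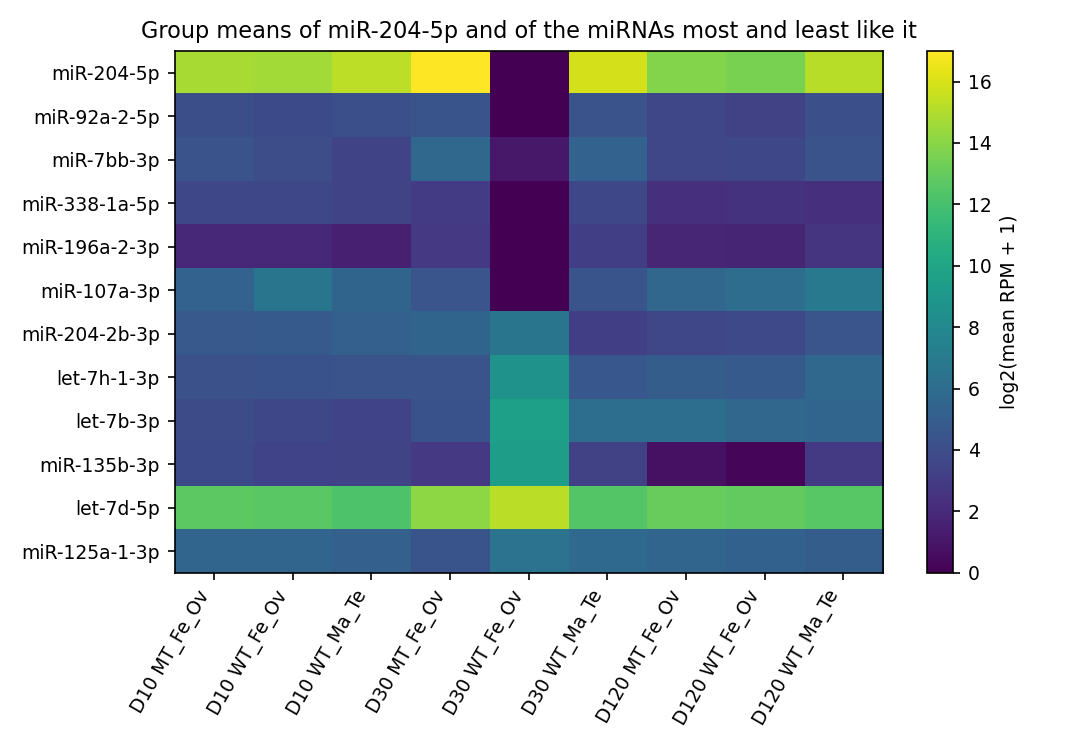
Group means of miR-204-5p, of the 5 miRNAs most like it, of miR-204-2b-3p and of the 5 least like it, as log2(mean RPM + 1) on the colour scale, with the 9 groups as columns. The D30 WT_Fe_Ov column is at or near 0 for the first 6 miRNAs and is the highest mean of each of the last 6.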

How the data were processed

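The authors selected small RNA by size, ligated adapters, amplified by PCR and sequenced 27 libraries on an Illumina HiSeq instrument. Per the authors' methods, reads were mapped to the ASM223467v1 genome and counted on mature miRNAs of FishmiRNA with miRDeep2. The deposited counts are whole reads per miRNA. The deposited RPM values were scaled by the authors to the summed miRNA counts of each library. How reads that match several near-identical miRNAs were split is not given in the sources used here.

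RPM was recomputed from the counts and differed from the deposited RPM by at most 4.97e-05. No pair of replicates agreed within sampling noise (lowest chi-square per degree of freedom 20.3 over 27 pairs). The miRNAs that passed the filter below were fitted with edgeR 4.0.16 in R 4.3.3, with library totals over all 437. The fits used the quasi-likelihood F test, TMM scaling and Benjamini-Hochberg adjustment over all miRNAs tested. They held the 3 groups of a stage, or all 27 libraries for stages and interactions. A miRNA was tested if 3 or more libraries of the fit held 10 or more of its counts, which left 388 at D10, 250 at D30, 344 at D120 and 399 over all. Both members passed in every fit, miR-204-2b-3p at D30 only with the WT_Fe_Ov libraries. The fit was tested on simulated data for genotype contrasts at D120 only, with a set spread between libraries. DESeq2 1.42.0 was an alternative, beside other scalings, filters, thresholds and left-out libraries. For a library at 0, 3 counts were taken as the limit, and folds against it use the mean of the group's limits. Shares, ranks, ratios and figures were made with Python 3.11.15, pandas 2.3.3, scipy 1.17.1 and matplotlib 3.10.9. Counts carry no molecular identifiers.

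The family members were all named. Other miRNAs named are the 5 most and the 5 least like the most abundant member by Pearson r. Those at 0 in 1 group with at least 10000 RPM in another are also named. miR-124-3p, miR-92a-3p and miR-148a-3p were singled out after their values were seen. The members and the lists of miRNAs of other tissues were chosen with earlier results of these data known.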

Additional observations from a re-analysis of the deposited data

Results flagged for a closer look

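Ovaries of the same stage moved in opposite directions at D30 in the RPM of miR-204-5p, a share of the miRNA counts. In each case below the difference between groups was not tested. The D30 mean was 131450 RPM in MT_Fe_Ov and 0 RPM in WT_Fe_Ov, with WT_Ma_Te between them. Relative to D10, all 3 D30 libraries of MT_Fe_Ov were higher and all 3 of WT_Fe_Ov were lower, as were 13.5% and 62.4% of the 399 miRNAs tested in those directions. Relative to D30, all D120 libraries were lower in MT_Fe_Ov (mean 14746 RPM) and WT_Ma_Te (36346 RPM) and higher in WT_Fe_Ov (12271 RPM), as were 13.3%, 23.3% and 50.1% of all miRNAs.

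For miR-204-2b-3p, the D30 libraries of WT_Fe_Ov were all above those of D10 (98.2 RPM at D30), and those of WT_Ma_Te were all below (7.89 RPM at D30), as for 17.8% and 40.1% of all miRNAs. Relative to D30, the D120 libraries were all lower in WT_Fe_Ov (12.5 RPM) and all higher in WT_Ma_Te (21.5 RPM), as for 20.1% and 43.9% of all miRNAs.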

How the results depend on the processing

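Of the log2 fold changes of miR-204-5p under the alternatives, 160 kept their direction and call, 19 gained a call and 4 changed sign, and for miR-204-2b-3p these were 136, 2 and 3. With all libraries, the values that changed sign were 0.20 or less in size, except 1 interaction at -0.48. The sign changes all came with a library left out. For miR-204-5p they were MT_Fe_Ov against WT_Fe_Ov at D10 (range with each library left out -0.16 to 0.32, below 0 without replicate 1 of D10 MT_Fe_Ov, -0.16, or D10 WT_Fe_Ov, -0.03) and at D120 (-0.0341 without replicate 3 of D120 WT_Fe_Ov, up to 0.47), and the interaction of WT_Fe_Ov against WT_Ma_Te (-0.74 to 0.12, above 0 without replicate 3 of D120 WT_Fe_Ov). For miR-204-2b-3p they were MT_Fe_Ov against WT_Fe_Ov at D10 (-0.33 to 0.0257, above 0 without replicate 3 of D10 MT_Fe_Ov or of D10 WT_Fe_Ov) and at D120 (-0.42 to 0.11).

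The number of calls over both members in the D10 and D120 genotype contrasts, 0 as reported, was 1 with DESeq2 and with RLE size factors, 2 with library totals only, with no minimum fold change and with all 27 libraries in 1 fit, and 0 to 1 with each library left out. For scale, calls over all miRNAs in D120 MT_Fe_Ov and WT_Fe_Ov against WT_Ma_Te were 126 and 131 with DESeq2. They were 123 and 128 with RLE size factors, 131 and 137 with library totals only and 157 and 162 with no minimum fold change, of 344 tested. With all 27 libraries in 1 fit they were 89 and 102 of 399. Between D120 and D10 the number over both members was 0 as reported, 1 with library totals only, 2 with no minimum fold change and with only the 6 libraries of a contrast, and 0 to 1 with each library left out. Over all miRNAs in MT_Fe_Ov, WT_Fe_Ov and WT_Ma_Te, 275, 271 and 264 of 399 were called with library totals only. With no minimum fold change these were 279, 286 and 268 of 399, and with only the 6 libraries 274, 276 and 265. For the interactions the number over both members stayed 0 in every alternative.

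With the replicate number as a block, 1 member was called, miR-204-5p in D120 WT_Fe_Ov against WT_Ma_Te at -1.03, and 0 between D120 and D10. That D120 contrast then had 125 calls over all 344 miRNAs tested. Whether the numbers pair the samples is not given by the labels. Same-numbered libraries of different groups had correlations of -0.24 to 0.19 in their deviations from the group means, with 4 of 27 above 0.1. With 3 libraries a group, such values cannot show that the samples were unpaired.

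The D30 WT_Ma_Te level of miR-204-5p was 54053 with TMM-scaled and 52454 with RLE-scaled CPM, against 61155.5 RPM, and the fold of D30 MT_Fe_Ov over D30 WT_Ma_Te was 2.75 and 2.87, against 2.15. Of the 5 most like miRNAs, 1 was shared with Spearman rho and 2 with 27 libraries as points.

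Over all miRNAs, the calls at D10 were 9 with DESeq2, 1 with only the 6 libraries and 2 with all 27 for MT_Fe_Ov against WT_Ma_Te. They were 23 with DESeq2, 2 with all 27 libraries and 0 to 7 with each library left out (7 without replicate 2 of D10 WT_Fe_Ov) for WT_Fe_Ov against WT_Ma_Te. At an adjusted p of 0.01, 80 were called in D120 MT_Fe_Ov against WT_Ma_Te, against 36.0% of 344 at 0.05, and in the interactions 38 against 76 (MT_Fe_Ov against WT_Ma_Te) and 43 against 70 (WT_Fe_Ov against WT_Ma_Te, 108 with the 18 libraries of D10 and D120). D120 MT_Fe_Ov against WT_Fe_Ov had 2 calls and 1 without any single WT_Fe_Ov replicate. With each library left out, the interaction of MT_Fe_Ov against WT_Ma_Te had as few as 47 calls. The cause of these shifts was not tested. The summed miRNA counts at D30, lowest in replicates 1 and 2 of MT_Fe_Ov, limit the 3p strand most. In the D30 MT_Fe_Ov libraries, 3 counts stood for 8.54 to 55.0 RPM.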
